A study of Drosophila melanogaster with 24 samples.

Results

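The nuclear-encoded subunits of the respiratory chain and the ATP synthase were followed in the larval fat body of Drosophila melanogaster while tumours grew in the wing discs. The subunits were taken as all genes whose FlyBase symbol starts with ND- (complex I), UQCR- (complex III), COX followed by 4, 5, 6, 7 or 8 (complex IV) or ATPsyn (ATP synthase, called complex V). The rule found 80 of 17698 genes in the count table, of which 40 belonged to complex I, 9 to complex III, 16 to complex IV and 15 to complex V. Their messenger RNA was higher with tumours at day 4, and was lower at day 5 than at day 4 with or without tumours, with the smallest median fall in complex I.

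The respiratory chain sits in the inner mitochondrial membrane. Complex I takes electrons from NADH, complex III passes them from ubiquinol to cytochrome c, and complex IV hands them to oxygen, while all 3 pump protons that drive the ATP synthase. The complexes join subunits made from nuclear genes with subunits made from the mitochondrial genome. The fat body combines the roles of liver and adipose tissue in the larva, storing fat, glycogen and storage proteins before metamorphosis.

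Tumour-bearing larvae were C855a-Gal4/UAS-scrib-RNAi, in which a Gal4 driver active in disc epithelia knocks down the polarity gene scrib, and were sampled 4, 5, 8 and 11 days after egg laying. Control larvae were C855a-Gal4/UAS-control-RNAi, with the same driver, and were sampled at 4 and 5 days. Each of the 6 groups had 4 libraries, each made from the pooled fat bodies of 50 larvae. No control group is older than day 5, so days 8 and 11 could be compared only with earlier tumour days, and age cannot be told apart from tumour growth there. At days 4 and 5 the groups were matched by days after egg laying only. Whether both genotypes had reached the same larval stage was not tested, so a difference of stage cannot be told apart from an effect of tumours. The labels do not say whether the pools came from separate crosses, and the p-values describe no more than how these pools varied.

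Total counts ranged from 16074877 to 23352151 per library. In the fat body itself, which is not the labelled target of the driver, scrib was at 35.6 ± 1.92 CPM (SD, n = 4) in tumour-bearing larvae and 44.1 ± 3.00 CPM in controls at day 5 (log2 fold change -0.31 ± 0.10, edgeR adjusted p = 0.0100), and at 34.0 ± 4.62 and 39.9 ± 3.31 CPM at day 4 (-0.23 ± 0.10, edgeR adjusted p = 0.0922). Levels are given in CPM, counts scaled to library size with trimmed-mean (TMM) factors. All 9 fat body markers were detected, and their summed level was 544224 to 639861 CPM with tumours at day 4, 57320 to 77964 CPM with tumours at day 11, and 462887 to 595048 CPM in the controls. In bulk tissue, fewer cells of a type and less RNA per cell cannot be told apart. Some pools held traces of other tissues. The first tumour library of day 5 had 404 CPM of summed testis markers against 0.546 to 5.48 CPM elsewhere, the third had 232 CPM of muscle markers, and the second control library of day 4 and the third of day 5 had 1426 and 1486 CPM of salivary gland markers. Gut markers summed to 393 and 267 CPM in tumour libraries 1 and 2 of day 5, against 2.80 and 1.48 CPM in the other 2, to 248 CPM in tumour library 1 of day 8, to 282 CPM in tumour library 3 of day 11, and to 263 and 192 CPM in control libraries 1 and 4 of day 5. Haemocyte markers summed to 604 to 842 CPM in tumour libraries of day 11 and 61.7 to 117 CPM in those of day 4.

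Of the 80 genes, 57 had enough counts to be tested among 8707 genes, 32 of complex I, 5 of complex III, 9 of complex IV and 11 of complex V. The 23 others were 20 of the 21 genes named as paralogs of another subunit (symbols ending in L or in L and a digit) and ND-B8, ND-MNLL and UQCR-14. No read was counted for ND-MNLL, UQCR-14 or COX5BL in any library, and all exon bases of each lie under exons of another gene in the BDGP6.54 annotation (CG45089, CG32576 and Trmt6). How the authors assigned such reads is not given in the sources used here, so these 3 genes cannot be read as silent. ND-MWFE and COX6AL passed the filter but never exceeded 2.01 CPM, which leaves 55 subunits with levels that can be followed. The 38 genes of the mitochondrial chromosome in the table, 13 of them protein-coding, had 0 counts in every library, so the mitochondrially encoded subunits are not analysed here.

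Among the 55 subunits, ATP synthase genes had the highest levels per length of exon. In control fat bodies at day 4 the median was 247 CPM per kb for the 11 complex V genes, 198 for the 8 complex IV genes, 98.9 for the 5 complex III genes and 54.2 for the 31 complex I genes. ATPsynC, the subunit of the rotating membrane ring (FBgn0039830, chromosome 3R, 31216145 to 31219630 in the BDGP6.54 annotation), had the highest level per kb with tumours at day 4 (898 CPM per kb) and in controls at day 5 (172 CPM per kb). ATPsynbeta, the catalytic subunit (FBgn0010217, chromosome 4, 1031484 to 1034917), came second in both (713 and 163 CPM per kb). All 80 subunits together took 0.866% ± 0.189 of counts with tumours at day 4, 0.379% ± 0.0379 at day 5, 0.418% ± 0.0263 at day 8 and 0.472% ± 0.0288 at day 11, and 0.626% ± 0.123 and 0.246% ± 0.0203 in controls at days 4 and 5 (SD, n = 4 each). Shares of counts depend on the storage protein transcripts that fill the rest of each library, and all comparisons below use TMM-scaled values.

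**Figure D1:**
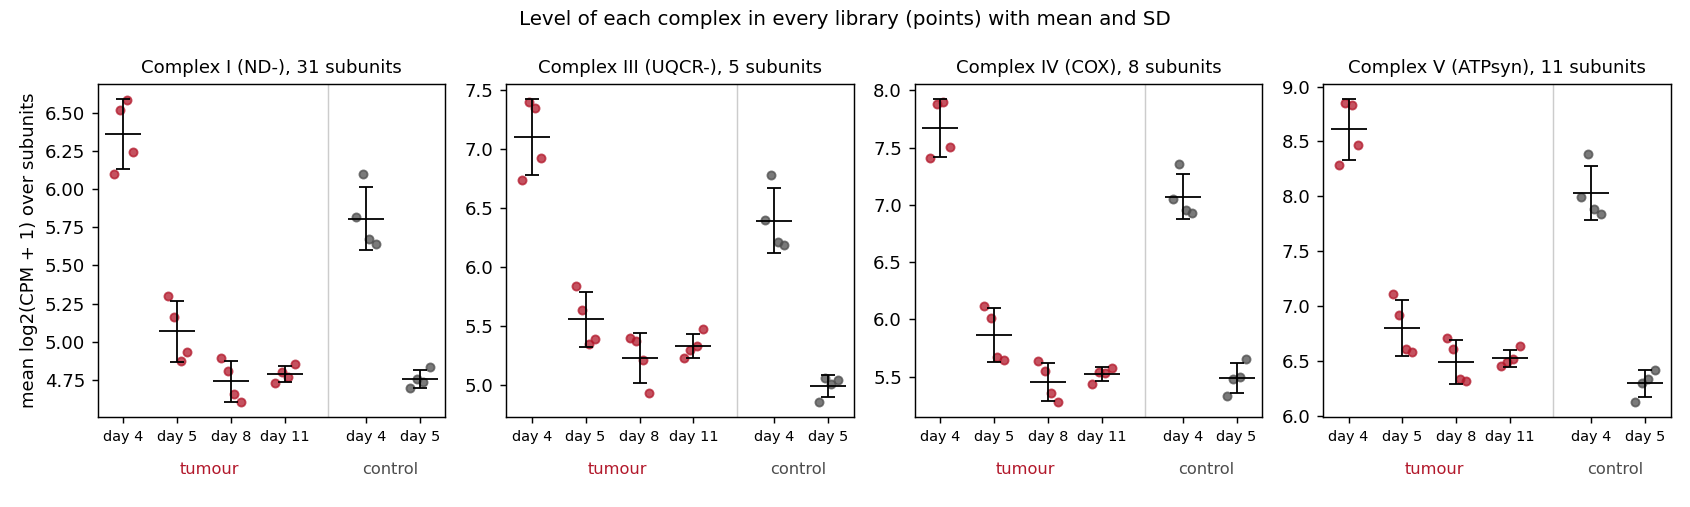
Level of each complex in every library, as the mean of log2(CPM + 1) over its subunits, with tumour days 4, 5, 8 and 11 on the left and control days 4 and 5 on the right of each panel; points are libraries and bars are mean and SD. Complex I was at 6.36 ± 0.23 with tumours and 5.81 ± 0.21 in controls at day 4, and at 4.60 to 5.30 in every library of a later day; the scale of each panel starts above 0 and differs between panels.

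At day 4 the subunits of all 4 complexes were more abundant with tumours than in controls. A gene was called where its Benjamini-Hochberg adjusted p in edgeR's quasi-likelihood test over all 8707 genes was under 0.05. By this rule 55 of the 57 tested subunits rose and 0 fell, against 14.6% of all genes called higher and 10.5% called lower. DESeq2 gave the same 55 and 0, and 0 subunits were lower at an unadjusted p under 0.05. The median log2 fold change was 0.61, against 0.01 for all genes, and the complexes were close to each other, with medians of 0.60, 0.67, 0.62 and 0.60 for the 31, 5, 8 and 11 measurable subunits of complexes I, III, IV and V. The 55 risen subunits spanned log2 fold changes of 0.31 (ND-AGGG) to 1.02 (UQCR-6.4). The libraries of both groups did not overlap for 21 of 57 subunits, a share to be read against 11% of all genes.

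In complex I, ND-75, the largest iron-sulfur subunit of the arm that receives electrons (FBgn0017566, chromosome X, 8248651 to 8251687 in the BDGP6.54 annotation) had 273, 370.0, 349 and 344 CPM in tumour libraries at day 4, against 234, 324, 213 and 197 CPM in control libraries (log2 fold change 0.47 ± 0.13 (SE), edgeR adjusted p = 0.0135). Its groups overlapped, because the second control library lay above the lowest tumour library. ND-49, which forms the quinone site with its neighbours, had 142, 182, 168 and 148 CPM with tumours, against 99.5, 128, 92.2 and 87.7 CPM in controls (log2 fold change 0.65 ± 0.11 (SE), edgeR adjusted p = 0.000135), with no overlap. ND-51, which binds NADH, rose by 0.51 ± 0.11 on the log2 scale (edgeR adjusted p = 0.00162), and the iron-sulfur proteins ND-23 and ND-20 by 0.68 ± 0.13 and 0.64 ± 0.13 (edgeR adjusted p = 0.000739 and 0.00128). ND-42, an accessory subunit, rose by 0.57 ± 0.13 (edgeR adjusted p = 0.0023). The largest rise in complex I was that of ND-SGDH, an accessory subunit of the membrane arm, with 63, 93.2, 94.5 and 69 CPM in tumour libraries, against 48.5, 65.6, 38.1 and 40.4 CPM in controls (log2 fold change 0.73 ± 0.16 (SE), edgeR adjusted p = 0.00196). The 7 core subunits had a median of 0.51 and the 24 other measurable subunits of complex I one of 0.60.

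Complex III held the largest single rise. UQCR-6.4, a small accessory subunit (FBgn0034245, chromosome 2R, 17572096 to 17572784), had 34.5, 61.4, 53.4 and 37.9 CPM with tumours, against 24.2, 32, 18 and 18.4 CPM in controls (log2 fold change 1.02 ± 0.24 (SE), edgeR adjusted p = 0.00367). Its libraries did not overlap, but 40.5% of its exon bases lie under POSH on the opposite strand. How reads in that part were assigned or left out is not given in the sources used here. The core proteins UQCR-C1 and UQCR-C2, which frame the matrix side of the complex, rose by 0.63 ± 0.16 and 0.67 ± 0.15 (edgeR adjusted p = 0.00708 and 0.00247). UQCR-Q had the smallest change of the complex, 0.61 ± 0.15 (edgeR adjusted p = 0.0046).

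In complex IV, COX4, which binds the core of the oxidase (FBgn0032833, chromosome 2L, 19958713 to 19960065), had 275, 377, 371 and 298 CPM in tumour libraries, against 215, 264, 195 and 190.3 CPM in control libraries (log2 fold change 0.61 ± 0.13 (SE), edgeR adjusted p = 0.00142), with no overlap. COX5B showed the largest rise of the complex, 0.73 ± 0.15, and COX7A the smallest, 0.44 ± 0.12 (edgeR adjusted p = 0.000894 and 0.00879). COX5A, COX6B and COX8 rose by 0.64, 0.55 and 0.70.

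In complex V, ATPsynbeta had 1378, 2069, 1859.5 and 1496 CPM with tumours, against 974, 1449, 876 and 852 CPM in controls, the largest rise of the complex (log2 fold change 0.71 ± 0.15 (SE), edgeR adjusted p = 0.00175). ATPsynC had 1309.9, 2087, 1895 and 1418 CPM with tumours, against 987, 1346, 911 and 908 CPM in controls (log2 fold change 0.69 ± 0.17 (SE), edgeR adjusted p = 0.00411). For both genes the second control library lay above the lowest tumour library, so the groups overlapped. ATPsyngamma, the rotating central stalk, ATPsynO, which ties the outer stalk to the catalytic head, and ATPsynF, a membrane subunit, rose by 0.56, 0.58 and 0.49, and ATPsynG, another membrane subunit, by 0.40 ± 0.14 (edgeR adjusted p = 0.0471).

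The pools of day 4 varied together across the complexes. The second control library was the highest of its group for 54 of the 55 subunits, and the first tumour library the lowest of its group for 47. The second control library also carried the most salivary gland markers. These were at 0.491, 0.118, 0.0619 and 0.303 CPM in tumour libraries of day 4, against 3.91, 1426, 4.91 and 5.29 CPM in control libraries. All 7 salivary gland markers were called lower with tumours at day 4, against 10.5% of all genes. Their part in the levels of the subunits was not tested. Gut markers were at 93.5, 161, 15.2 and 125 CPM in tumour libraries and at 3.75, 15.9, 106 and 26.8 CPM in control libraries. Muscle markers were at 57.0, 76.6, 141 and 107 CPM and at 77.8, 81.6, 40.8 and 44.8 CPM in the same groups. Haemocyte markers were at 61.7 to 117 and 48.1 to 83.3 CPM, and wing disc markers at 84.3 to 109 and 61.4 to 94.3 CPM. The third tumour library, with the fewest gut and the most muscle and haemocyte markers, was the highest of its group for 35 of the 55 subunits. The part of these markers in the rise was not tested. Leaving out any 1 library of day 4 gave 47 to 55 called subunits, and 46 of the 55 were called in all 8 such fits. With only the 2 groups of day 4 in the model, 36 were called.

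**Figure D2:**
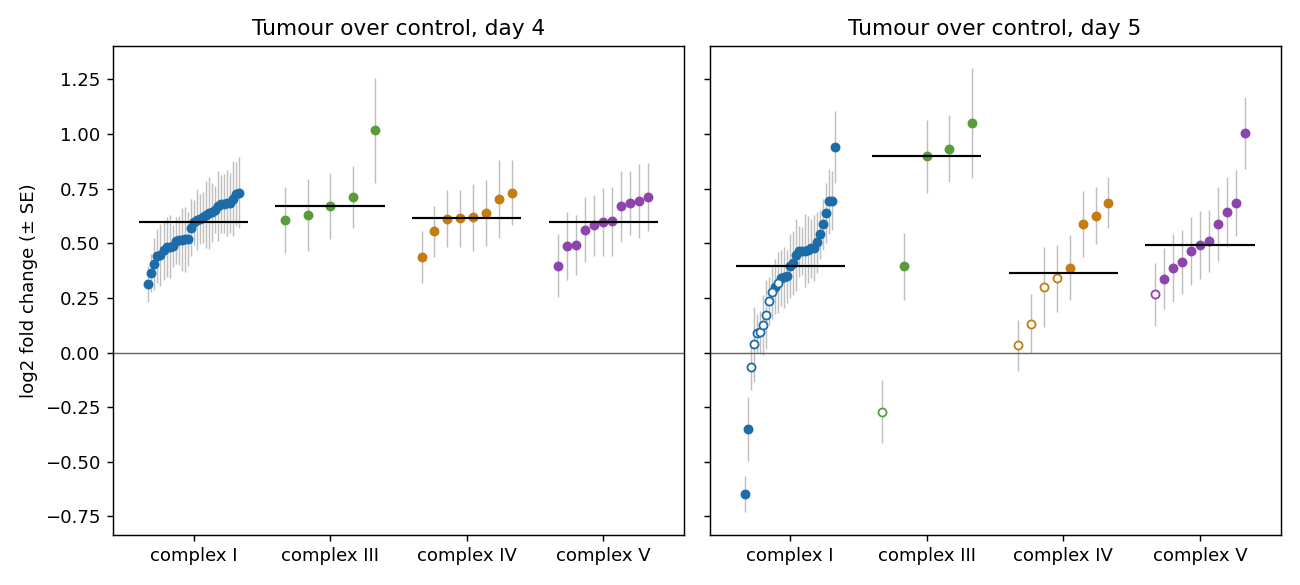
Log2 fold change of tumour over control with its SE for each of 55 subunits, grouped by complex, at day 4 (left) and day 5 (right); filled points were called, open points were not, and black lines are medians of the complexes. At day 4 every point is filled and above 0, and at day 5 the points spread from -0.65 (ND-AGGG) to 1.05 (UQCR-6.4).

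At day 5 the subunits were higher with tumours in most cases, with a wider spread between genes, and most of the calls were lost without the libraries that held gut markers. Of the 57 tested subunits 38 rose and 2 fell, against 26.7% and 28.2% of all genes, with a median log2 fold change of 0.44 against 0.03 for all genes. An alternative chosen after seeing the data left out the gut-marked libraries of days 5 and 8, which leaves 2 libraries in each group of day 5. In that fit 6 subunits rose (ATPsynB, COX6B, ND-20, ND-51, ND-SGDH and UQCR-C2) and 1 fell (ND-AGGG), with a median log2 fold change of 0.18. The share of all genes called in that fit is not given here. The loss of calls thus cannot be told apart from that of having fewer libraries. Haemocyte markers were at 72.8 to 139.9 CPM with tumours and 32.7 to 56.4 CPM in controls. The summed fat body markers were at 274294 to 425387 CPM with tumours and 462887 to 497376 CPM in controls. Of the 9 fat body markers taken singly, 5 were called higher with tumours and 1 lower, with a median log2 fold change of 0.38. The part of these markers in the result was not tested. By complex, 20 of 32 subunits rose in complex I, 4 of 5 in complex III, 4 of 9 in complex IV and 10 of 11 in complex V. Among the 55 measurable subunits the median was highest in complex III, at 0.90, and was 0.40, 0.36 and 0.49 in complexes I, IV and V. Libraries did not overlap, tumours being higher, for 32 of 57 subunits, against 22.4% of all genes.

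The largest changes belonged to UQCR-6.4, ATPsynB, ND-SGDH and the core proteins of complex III. UQCR-C2 had 137, 119.9, 99 and 96.1 CPM in tumour libraries, against 53.8, 60.7, 61.4 and 61.1 CPM in controls (log2 fold change 0.93 ± 0.15 (SE), edgeR adjusted p = 2.4e-05). ATPsynB, the outer stalk of the ATP synthase, had 187, 157, 118 and 123 CPM with tumours, against 65.3, 75.1, 73.4 and 77.9 CPM in controls (log2 fold change 1.00 ± 0.16 (SE), edgeR adjusted p = 2.15e-05). All tumour libraries lay above all control libraries for both genes. UQCR-6.4 had 19.3, 16, 9.9 and 13.3 CPM with tumours, against 5.63, 8.01, 7.03 and 7.61 CPM in controls (log2 fold change 1.05 ± 0.25 (SE), edgeR adjusted p = 0.00135), again without overlap. UQCR-C1 rose by 0.90 ± 0.17 and ND-SGDH by 0.94 ± 0.16 (edgeR adjusted p = 9.38e-05 and 5.17e-05).

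The core subunits of complex I were split. ND-75 had 189, 157, 137 and 139 CPM with tumours, against 96.4, 96.9, 98.6 and 92.6 CPM in controls (log2 fold change 0.69 ± 0.13 (SE), edgeR adjusted p = 0.000161), and ND-20, ND-51 and ND-23 rose by 0.64, 0.54 and 0.48. ND-49 had 81.5 ± 8.76 CPM with tumours and 69.2 ± 3.07 CPM in controls (SD, n = 4 each), which missed the threshold (log2 fold change 0.24 ± 0.11 (SE), edgeR adjusted p = 0.0702). ND-42 rose by 0.34 ± 0.13 (edgeR adjusted p = 0.0307). In complex IV, COX6B, COX4 and COX5A rose by 0.69, 0.63 and 0.59 and COX5B by 0.39, while COX7A, COX7B, COX7C and COX8 were not called. Among these, COX8 had 25.2, 25, 17.3 and 17 CPM with tumours, against 13.9, 14.7, 19.7 and 20.3 CPM in controls, and COX7A had 81.4, 74.6, 66.6 and 58.2 CPM with tumours, against 63, 68.4, 62.8 and 80.4 CPM in controls. In complex V, ATPsyngamma, ATPsynC, ATPsynO, ATPsynbeta and ATPsynF rose by 0.69, 0.59, 0.51, 0.46 and 0.39, and ATPsynG was not called (0.27 ± 0.15, edgeR adjusted p = 0.126).

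Both subunits that fell are accessory subunits of complex I. ND-AGGG, of the membrane arm (FBgn0058002, chromosome 3L, 24976254 to 24977118), had 17.7, 18.5, 15.4 and 16.3 CPM with tumours, against 26.7, 23.4, 26.9 and 29.3 CPM in controls (log2 fold change -0.65 ± 0.08 (SE), edgeR adjusted p = 1.15e-06), with no overlap, and it was called in all 8 fits that left out a library and under all 10 other alternatives. ND-13A, of the arm that receives electrons, had 13.2, 8.26, 10.9 and 8.36 CPM with tumours, against 11, 13.1, 13.3 and 14.6 CPM in controls (log2 fold change -0.35 ± 0.15 (SE), edgeR adjusted p = 0.0484). Its groups overlapped and it was called in only 2 of 8 fits that left out a library. UQCR-11, a small subunit of complex III (FBgn0260008, chromosome 3L, 25120709 to 25126171), had 22.6, 22.4, 18.8 and 19.1 CPM with tumours, against 24.8, 26.4, 24.2 and 24.6 CPM in controls, every tumour library below every control library, but was not called (log2 fold change -0.27 ± 0.14 (SE), edgeR adjusted p = 0.115).

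The first tumour library of day 5, which held the testis markers and the most gut markers, was the highest of its group for 49 of 55 subunits, and the second, also with gut markers, for the other 6. Without the first library 21 subunits were called higher, and without the second tumour library 25. Leaving out any 1 of the other libraries of day 5 gave 27 to 43, and 22 of the 40 called subunits were called in all 8 such fits. In controls of day 5, library 1, with 263 CPM of gut markers, was the lowest of its group for 36 of 55 subunits. Control library 4, with 192 CPM, was the highest for 34. At day 11, tumour library 3, with 282 CPM, was the highest of its group for 10 and library 4, with 0.884 CPM, for 36. The part of gut markers in these levels was not tested.

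The tumour effect itself differed between the days for 8 subunits, all with a smaller or opposite effect at day 5. In the test of the difference between the effects of days 5 and 4, 0 subunits were higher and 8 were lower, against 12.1% and 16.8% of all genes, and the share of subunits, with a median of -0.15, was not above that background. Scaled to total counts, the median was 0.11, below the 0.28 of all genes, and 3 subunits were higher and 3 lower. The lowest values were those of UQCR-11 (-0.98 ± 0.20, edgeR adjusted p = 0.000857) and ND-AGGG (-0.96 ± 0.12, edgeR adjusted p = 2.76e-06). UQCR-11 had 49.6, 76.9, 75 and 47.8 CPM with tumours, against 36.2, 43.1, 36.7 and 36.5 CPM in controls at day 4, the opposite order to day 5. ND-AGGG had 39.9, 43.2, 48.1 and 40.3 CPM with tumours, against 33.6, 34, 34.6 and 35.8 CPM in controls at day 4, also the opposite order.

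The other 6 were complex I subunits. ND-13A and ND-15, which faces the space between the membranes, differed by -0.79 ± 0.20 and -0.66 ± 0.15 (edgeR adjusted p = 0.00545 and 0.00175). ND-MLRQ, ND-B17.2, ND-49 and ND-13B differed by -0.67, -0.56, -0.42 and -0.39, with edgeR adjusted p = 0.0431, 0.0342, 0.0454 and 0.0353. ND-AGGG, UQCR-11, ND-15 and ND-13A were called in all 16 fits that left out a library, and the other 4 in 6 to 9 of them. The count was 4 or 5 without tumour library 2 or 3 of day 4, tumour library 3 or 4 of day 5, control library 1, 3 or 4 of day 4, or control library 1 or 4 of day 5, and 6 to 12 without any of the others. Without the gut-marked libraries of day 5, 6 were lower, and the median was -0.40, but libraries of day 4 with gut markers stayed in. No subunit was higher at an unadjusted p under 0.05 or by DESeq2, which called 8 lower. ATPsynB had the highest value, 0.34 ± 0.23 (edgeR adjusted p = 0.288). The core proteins UQCR-C1 and UQCR-C2 were at 0.27 and 0.26, and COX7C, COX7A and COX8 at -0.48, -0.41 and -0.40, none of them called.

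**Figure D3:**
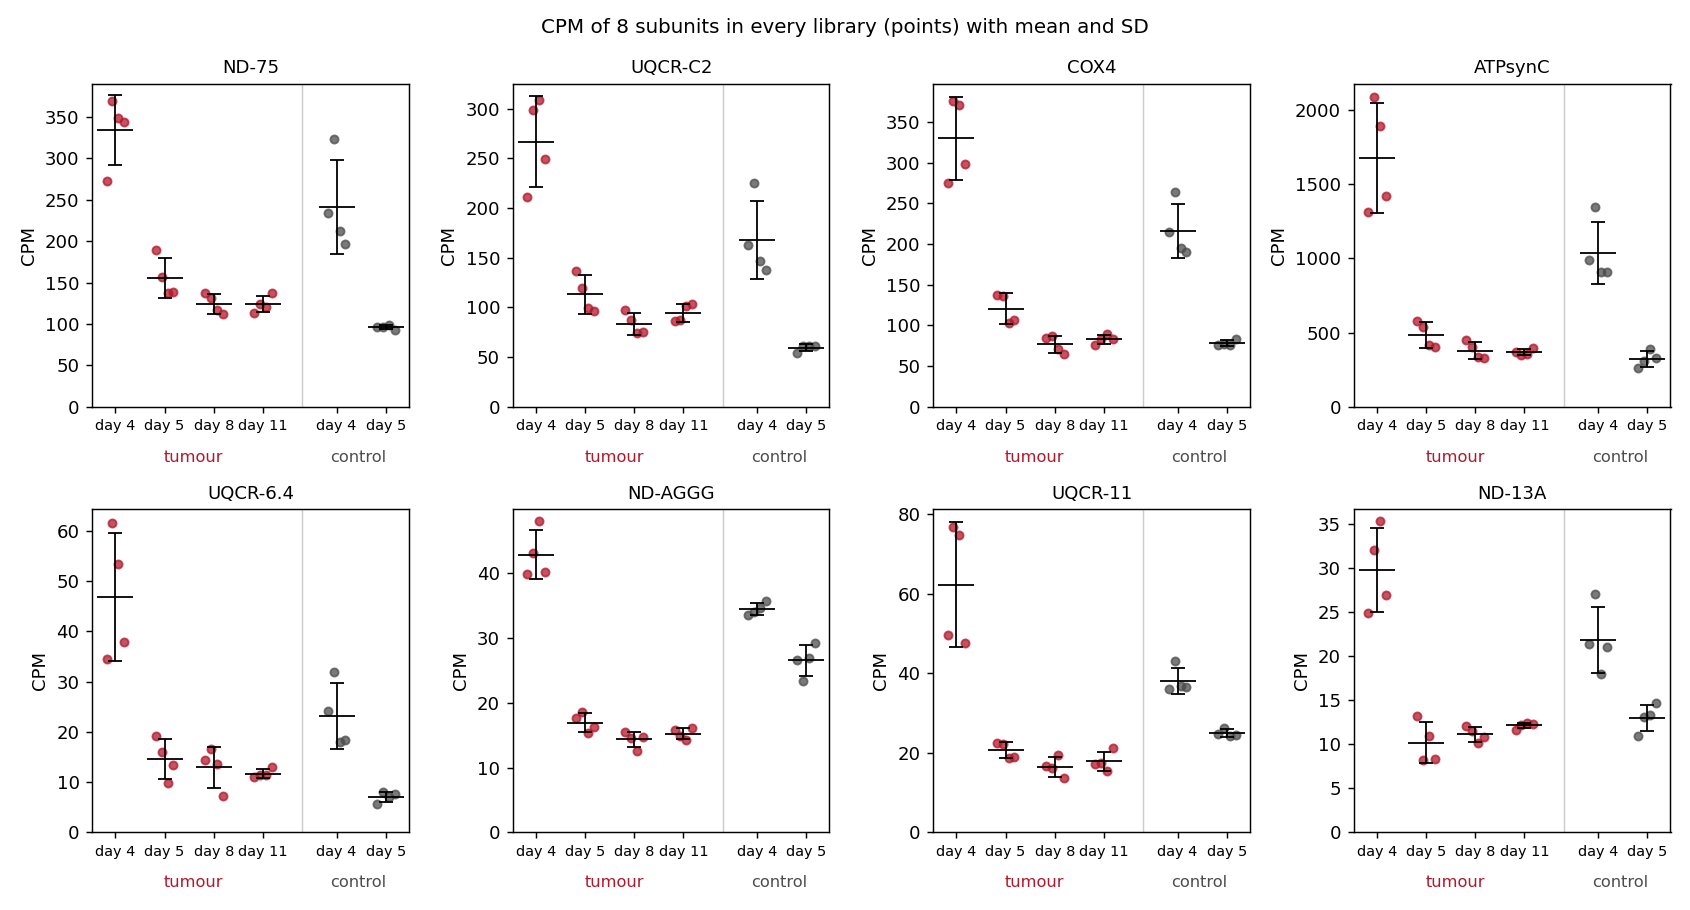
CPM of 8 subunits in every library, with tumour days 4, 5, 8 and 11 left of control days 4 and 5; points are libraries and bars are mean and SD. ND-75, UQCR-C2, COX4, ATPsynC and UQCR-6.4 were higher with tumours at both days, whereas ND-AGGG and UQCR-11 were higher with tumours at day 4 (62.3 CPM on average for UQCR-11 against 38.1 CPM) and lower at day 5 (20.7 CPM against 25.0 CPM), a difference that was not called for UQCR-11 at day 5.

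Between days 4 and 5 the subunits fell together, with tumours and in controls. With tumours 55 of 57 tested subunits were lower at day 5 and 1 was higher, against 24.5% and 19.6% of all genes, with a median log2 fold change of -1.52 against 0.02 for all genes. In controls 55 were lower and 1 was higher, against 29.2% and 25.8% of all genes, with a median of -1.38 against -0.09 for all genes. Every library of day 5 lay below every library of day 4 for 55 subunits with tumours, against 21.5% of all genes, and for 56 in controls, against 23.3% of all genes. The 1 gene higher at day 5 was COX6AL in both. Leaving out any 1 library left 55 subunits lower in both comparisons, as did leaving out the gut-marked libraries, with medians of -1.67 with tumours and -1.34 in controls.

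Complex I had the smallest median fall in both settings, and complex V the largest in controls. With tumours the medians over the 55 measurable subunits were -1.31, -1.59, -1.84 and -1.82 for complexes I, III, IV and V, and in controls they were -1.11, -1.60, -1.56 and -1.82. The level of complex V relative to complex I, as the difference of their mean log2(CPM + 1), was lower at day 5. In tumour libraries this difference was 1.65 to 1.81 at day 5, against 2.19 to 2.33 at day 4, and in control libraries it was 1.43 to 1.60 at day 5, against 2.18 to 2.28 at day 4. Complex IV relative to complex I showed the same pattern, with 0.71 to 0.85 in tumour libraries at day 5, against 1.26 to 1.36 at day 4, and 0.64 to 0.82 in control libraries at day 5, against 1.24 to 1.28 at day 4. Neither pair of ranges overlapped. Complex III relative to complex I was at 0.46 to 0.54 in tumour libraries at day 5, against 0.64 to 0.87 at day 4, and at 0.16 to 0.30 in control libraries at day 5, against 0.54 to 0.68 at day 4. These differences are not corrected for gene length and are read only across groups.

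In complex V the fall spanned -1.59 (ATPsynB) to -2.05 (ATPsynF) with tumours and -1.42 (ATPsynbeta) to -1.95 (ATPsynF) in controls. ATPsynC had 579, 539, 414 and 406 CPM in tumour libraries at day 5, against the values of day 4 above (log2 fold change -1.79 ± 0.17 (SE), edgeR adjusted p = 3.64e-08). In control libraries ATPsynC had 261, 311, 392 and 326 CPM at day 5 (log2 fold change -1.69 ± 0.17 (SE), edgeR adjusted p = 4.82e-08). ATPsynF had 62.2, 73.9, 65.1 and 81.6 CPM in controls at day 5, against 271, 349, 241 and 232 CPM at day 4 (log2 fold change -1.95 ± 0.16 (SE), edgeR adjusted p = 2.32e-09), the deepest fall of all 55 subunits there. ATPsyngamma and ATPsynO changed by -1.78 and -1.82 in controls. The 3 subunits of the catalytic head and central stalk had a median of -1.67 with tumours and the 8 of the membrane part and outer stalk one of -1.89.

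In complex IV, COX8 had the deepest fall of all 55 subunits with tumours, with 25.2, 25, 17.3 and 17 CPM at day 5, against 80.5, 122, 114 and 74.9 CPM at day 4 (log2 fold change -2.21 ± 0.19 (SE), edgeR adjusted p = 7.31e-09). COX6B had the shallowest fall of the complex with tumours (-1.38), and in controls COX7B had the deepest (-1.84) and COX7A the shallowest (-1.41). COX4, COX5A and COX5B changed by -1.45, -1.76 and -1.86 with tumours and by -1.47, -1.71 and -1.52 in controls. In complex III, UQCR-Q fell the most in both settings (-2.11 with tumours and -1.90 in controls). UQCR-C1 and UQCR-C2 changed by -1.33 and -1.24 with tumours and by -1.60 and -1.50 in controls, and UQCR-11 by -1.59 and -0.61.

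Complex I held the shallowest falls. ND-51 had 93.1, 83.5, 69.3 and 77.1 CPM in tumour libraries at day 5, against 121, 159, 157 and 134 CPM at day 4, the shallowest with tumours (log2 fold change -0.82 ± 0.11 (SE), edgeR adjusted p = 3.38e-06). In controls the shallowest was ND-AGGG (-0.38), followed by ND-49 (-0.56), UQCR-11 of complex III and ND-13B (-0.63), and the deepest of complex I was ND-39 (-1.55). ND-75, ND-20, ND-23 and ND-42 changed by -1.10, -1.06, -1.31 and -1.36 with tumours and by -1.33, -1.05, -1.11 and -1.12 in controls. ND-MLRQ had the deepest fall of complex I with tumours, with 50.7, 44, 32.6 and 32.9 CPM at day 5, against 144, 199, 195 and 135 CPM at day 4 (log2 fold change -2.07 ± 0.18 (SE), edgeR adjusted p = 7.77e-09). Its mammalian homolog, NDUFA4, is now counted as a subunit of complex IV, and its change was nearer to the complex IV median of -1.84 than to the complex I median of -1.31. In controls it changed by -1.41, between the medians of complexes I and IV.

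Both settings ordered the subunits in a similar way. Across the 55 subunits, the changes with tumours and in controls, which share no library, had a Pearson correlation of 0.70 and a Spearman correlation of 0.73. The level per kb in controls at day 4 and the log2 fold change with tumours had a negative correlation (Pearson -0.52, Spearman -0.49). These correlations are descriptions over genes that share libraries within each comparison and are not independent.

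**Figure D4:**
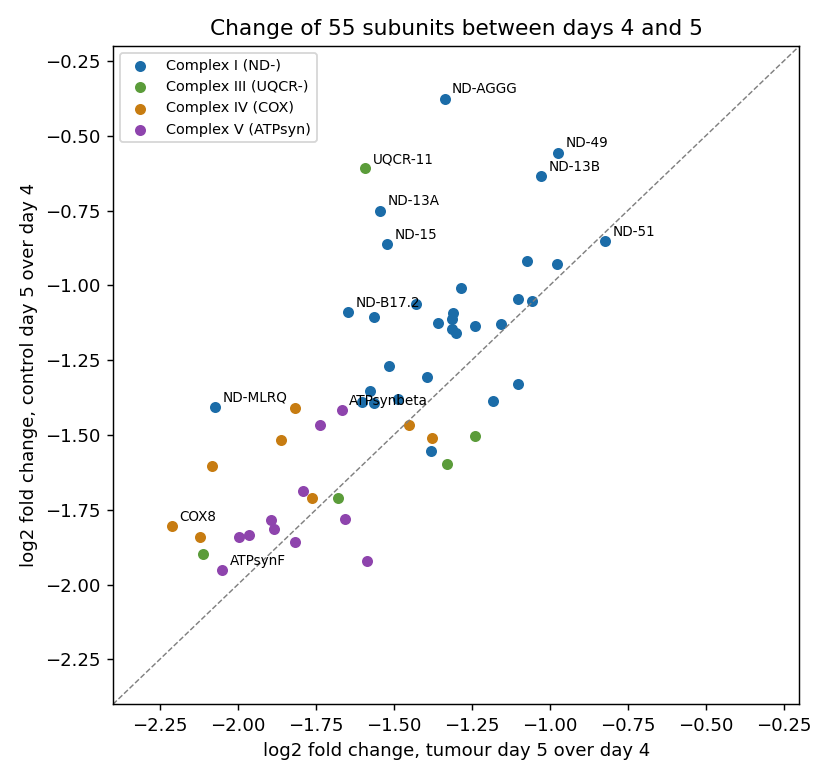
Log2 fold change of day 5 over day 4 with tumours (x axis) against that in controls (y axis) for 55 subunits, coloured by complex; the dashed line marks equal change. All points are below 0 on both axes, most of complex V lies at the lower left, and the subunits farthest above the line, UQCR-11 and ND-AGGG, changed by -1.59 and -1.34 with tumours and by -0.61 and -0.38 in controls.

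Between days 5 and 8 with tumours the subunits fell further by a smaller amount, a direction that turned under scaling to total counts and a count that fell to 1 without the gut-marked libraries. Of the 57 tested subunits 25 were lower at day 8 and 0 higher, against 14% and 12% of all genes, with a median of -0.36 against 0.01 for all genes. By complex, 16 of 32, 2 of 5, 5 of 9 and 2 of 11 subunits of complexes I, III, IV and V were lower. The libraries did not overlap for 19 of 57 subunits, against 15.5% of all genes. No subunit was higher at an unadjusted p under 0.05 or by DESeq2. COX4 fell the most, with 84.7, 86.7, 70.6 and 64.3 CPM at day 8, against 138, 136, 102 and 107 CPM at day 5 (log2 fold change -0.66 ± 0.13 (SE), edgeR adjusted p = 0.000722), and all its libraries of day 8 lay below all of day 5. ND-39, an accessory subunit of complex I, had 74.8 ± 9.7 CPM at day 8 and 116 ± 22.2 CPM at day 5 (log2 fold change -0.63 ± 0.15 (SE), edgeR adjusted p = 0.00328).

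ATPsynG and UQCR-Q had the deepest falls of complexes V and III (-0.54 ± 0.15 and -0.51 ± 0.15, edgeR adjusted p = 0.00848 and 0.016). COX6B, ATPsynO, COX5B, UQCR-C2, ND-42, ND-20, COX5A, ND-51 and ND-49 were called, with log2 fold changes of -0.49, -0.47, -0.45, -0.44, -0.44, -0.42, -0.42, -0.35 and -0.34. ND-75, ND-23, UQCR-C1, COX7A, COX8, ATPsynbeta, ATPsyngamma, ATPsynC and ATPsynF were not called, with values of -0.32, -0.34, -0.23, -0.26, -0.23, -0.28, -0.37, -0.36 and -0.17. The highest value of the 55 was that of ND-13A, 0.13 ± 0.15 (edgeR adjusted p = 0.563). The difference between the levels of complexes V and I stayed at 1.68 to 1.81 at day 8 and 1.69 to 1.78 at day 11.

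This comparison rests on the scaling and on single libraries. The summed fat body markers, mostly storage proteins, took 96256 to 162724 CPM at day 8 and 274294 to 425387 CPM at day 5, and the TMM factors were 1.28 to 1.44 at day 8 and 0.873 to 1.07 at day 5. Haemocyte markers summed to 211 to 345 CPM at day 8 and 72.8 to 139.9 CPM at day 5, and the part of these markers in the result was not tested. Scaled to total counts instead, the median of all genes moved to 0.50, 5 subunits were called higher and 0 lower, and the subunits' median was 0.14, which is 0.36 below that of all genes. Without the first tumour library of day 5 the count was 7 lower and 1 higher (COX6AL), without the second 14, and without the third or the fourth library of day 8 it was 10. Leaving out any 1 of the others gave 22 to 36. Without the gut-marked libraries 1 was lower and 1 higher (COX6AL), with a median of -0.20, and the tumour library of day 8 with gut markers was the highest of its group for 41 of 55 subunits. The share of all genes called without them is not given here, so this loss of calls cannot be told apart from that of having fewer libraries.

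Between days 8 and 11 no change was called. By edgeR 0 of 57 subunits were higher and 0 lower, against 1.72% and 1.62% of all genes, and 0 passed in either direction at an unadjusted p under 0.05 or by DESeq2. The median was 0.05 against 0.00 for all genes, and the 55 measurable subunits spanned -0.14 (UQCR-6.4) to 0.22 (COX5B). ATPsynC had 370.1, 347, 358 and 393 CPM at day 11, against 448, 406, 333 and 325 CPM at day 8 (log2 fold change -0.04 ± 0.17 (SE), edgeR adjusted p = 0.96). ND-75 had 124 ± 9.72 CPM at day 11 and 124 ± 11.9 CPM at day 8 (SD, n = 4 each). The lowest values of complexes I, IV and V were those of ND-B17 (-0.13), COX6B (-0.12) and ATPsyndelta (-0.06), and the highest of complexes I, III and V those of ND-MLRQ (0.20), UQCR-Q (0.21) and ATPsynCF6 (0.13). The levels were not tested against those of controls at day 5 and are given side by side. Complex I was at 4.73 to 4.85 on the log2(CPM + 1) scale at day 11, 4.60 to 4.89 at day 8 and 4.70 to 4.83 in controls at day 5, with overlapping ranges. Complex III was at 5.23 to 5.47 at day 11, 4.93 to 5.39 at day 8 and 4.85 to 5.05 in controls at day 5. Complex IV was at 5.44 to 5.58, 5.28 to 5.64 and 5.34 to 5.66 in the same groups, and complex V at 6.45 to 6.64, 6.31 to 6.71 and 6.12 to 6.41. Complexes III and V lay higher in every library of day 11 than in every control library of day 5.

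COX6AL was the only paralog-named gene that passed the count filter. It had 1 count in all at day 4 with tumours, 24 at day 5, of which 23 came from the library with testis markers, 87 at day 8 and 181 at day 11, and 0 and 14 in controls at days 4 and 5. At days 8 and 11 all 8 tumour libraries held between 9 and 59 counts, or 0.385, 0.613, 1.04 and 1.56 CPM at day 8 and 0.93, 1.38, 2.01 and 1.68 CPM at day 11. Its calls at day 5 against day 4 rest on these few counts and were lost with tumours without library 1, 2 or 4 of day 4 or library 1 of day 5 (edgeR adjusted p = 0.0325 with tumours and 0.0242 in controls), and no fold is given against groups at 0 or 1 count. The steps from day 5 to day 8 and from day 8 to day 11 were not called (edgeR adjusted p = 0.229 and 0.785). ND-MWFE had 223 counts over all 24 libraries, 30 of them in the library with testis markers, and was called in no comparison.

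The other 20 paralog-named genes, which include ND-49L, ND-51L1, COX4L and ATPsynbetaL, had most of their counts in 1 library. In the first tumour library of day 5 they summed to 931 counts over 19 genes, or 47.2 CPM, of 1338 counts in all libraries. In the 23 other libraries they summed to 1 to 52 counts, or 0.0638 to 1.98 CPM. ATPsynbetaL had 230 of its 312 counts in that library, COX4L 113 of 152, ND-51L1 112 of 129 and ND-49L 86 of 109. Over 50% of a gene's counts lay in that library for 16 of the 20 genes. The exceptions were UQCR-6.4L with 13 of 74 counts there and 46 at day 11, UQCR-11L with 11 of 74, COX7AL2 with 2 of 48, and COX5BL with no count. The same library held the testis and gut markers, whose part was not tested. ND-B8 had 24 counts in all, 12 of them at day 5 with tumours.

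**Figure D5:**
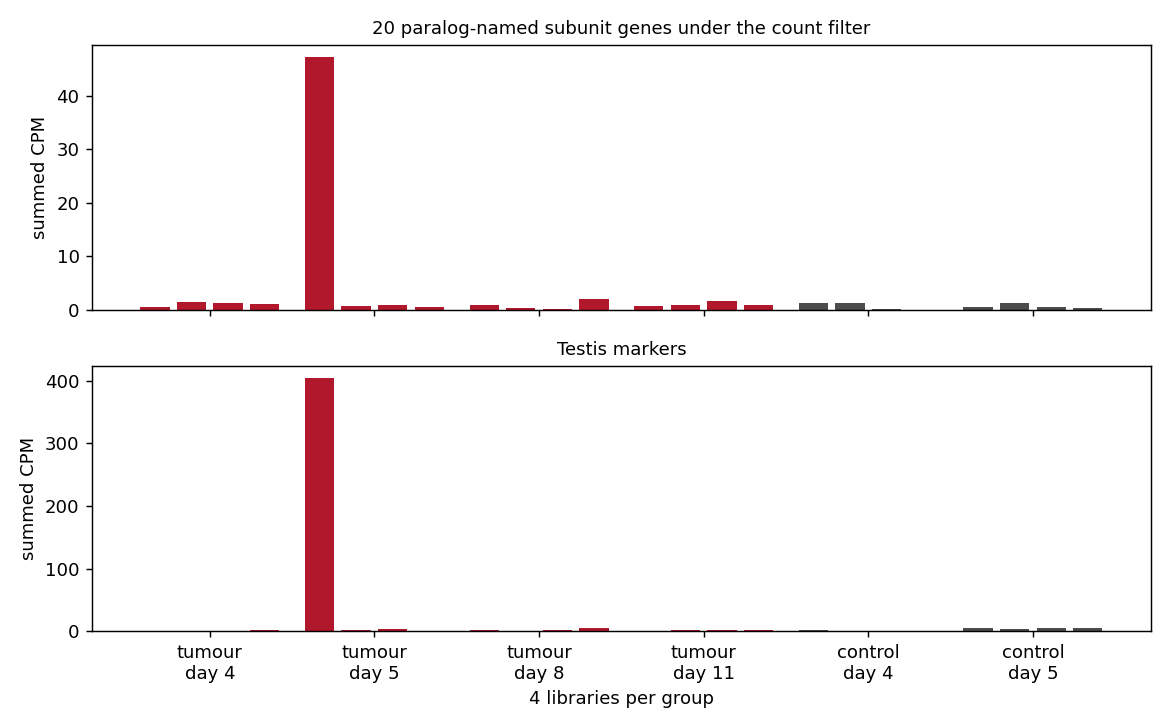
Summed CPM of the 20 paralog-named subunit genes under the count filter (top) and of 14 testis markers (bottom) in each of 24 libraries, tumour days 4, 5, 8 and 11 left of control days 4 and 5. The first tumour library of day 5 stands out in both panels with 47.2 and 404 CPM.

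Other genes of oxidative phosphorylation moved with the subunits to differing extents. The 7 tested subunits that the symbol rule leaves out, among them blw (the alpha subunit of the ATP synthase), RFeSP (the Rieske protein of complex III) and levy and cype of complex IV, rose in 7 of 7 cases at day 4 and 4 of 7 at day 5 with tumours, and 7 of 7 were lower at day 5 than at day 4 in both settings. Of all genes, 14.6% were called higher with tumours at day 4 and 26.7% at day 5. Between days 4 and 5, 24.5% of all genes were called lower with tumours and 29.2% in controls. The median changes of these 7 subunits were 0.61 and 0.53 for tumour against control, and -1.84 with tumours and -1.75 in controls for day 5 against day 4. blw, the most abundant of them, had 1131, 955, 785 and 787 CPM with tumours at day 5, against 500.3, 563, 592 and 526 CPM in controls (log2 fold change 0.75 ± 0.15 (SE), edgeR adjusted p = 0.000243).

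The list of complex II, which feeds electrons from succinate into the chain, and of electron carriers, which also held Gpo1, had 6 tested genes. Of these, 4 rose with tumours at day 4 and 3 at day 5, against 14.6% and 26.7% of all genes. All 6 fell between days 4 and 5 in both settings, against 24.5% of all genes with tumours and 29.2% in controls. SdhA, the flavoprotein of complex II, had a larger fold change at day 5 than any of the 55 subunits. It had 108, 85.1, 61.9 and 68.4 CPM with tumours at day 5, against 21, 25.5, 24.1 and 19.1 CPM in controls (log2 fold change 1.85 ± 0.16 (SE), edgeR adjusted p = 2.18e-09). This effect was larger than at day 4 (difference 0.77 ± 0.21, edgeR adjusted p = 0.00974). SdhB had 76.9 ± 6.78 and 56.6 ± 3.37 CPM in the same groups (log2 fold change 0.44 ± 0.13 (SE), edgeR adjusted p = 0.00631). Of the 4 tested mitochondrial carriers 3 rose at day 4 (sesB, porin and Mpcp2), against 14.6% of all genes. At day 5, 3 rose (sesB, Ant2 and Mpcp2), against 26.7% of all genes, with sesB and Mpcp2 called on both days. Mpcp2, which imports the phosphate used by the ATP synthase, had 692, 671, 524 and 562 CPM with tumours at day 5, against 151, 165, 188 and 155 CPM in controls (log2 fold change 1.89 ± 0.16 (SE), edgeR adjusted p = 2.31e-09), and between days 4 and 5 with tumours it was not called (-0.22 ± 0.16, edgeR adjusted p = 0.271). porin, the channel of the outer membrane, was higher with tumours at day 4 (0.70 ± 0.17) and not called at day 5 (-0.06 ± 0.17, edgeR adjusted p = 0.772).

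Of 9 tested assembly factors, 2 rose at day 4, against 14.6% of all genes (Cox10, which makes the haem of complex IV, and Bcs1, which inserts the Rieske protein). At day 5, 3 rose and 1 fell, against 26.7% and 28.2% of all genes, so that these counts are near the background. Between days 4 and 5, 9 of 9 fell with tumours, against 24.5% of all genes. In controls 7 of 9 fell and 1 rose, against 29.2% and 25.8% of all genes. Cox10 had 22, 15.7, 12.1 and 16.2 CPM with tumours at day 5, against 4.97, 6.23, 6.53 and 5.06 CPM in controls (log2 fold change 1.54 ± 0.21 (SE), edgeR adjusted p = 2.54e-06). Coa7, named for its role in complex IV assembly in human cells, went the other way, with 18.2, 21.1, 17.9 and 21 CPM with tumours at day 5, against 77.1, 65.2, 66.6 and 72.7 CPM in controls (log2 fold change -1.85 ± 0.09 (SE), edgeR adjusted p = 1.16e-12). Of 10 tested regulators and genes of mitochondrial DNA upkeep, 1 rose and 1 fell at day 4, against 14.6% and 10.5% of all genes, and 3 rose and 3 fell at day 5, against 26.7% and 28.2%, which is at the background. PolrMT, the RNA polymerase of mitochondria, had 17.1, 14.8, 11.7 and 14.9 CPM with tumours at day 5, against 1.94, 3.22, 7.71 and 2.62 CPM in controls, of which the third is the library with salivary gland markers (log2 fold change 1.91 ± 0.34 (SE), edgeR adjusted p = 7.28e-05). ERR, a nuclear receptor of metabolic genes, was lower with tumours at day 5 (3.96 ± 0.839 and 6.69 ± 0.749 CPM, log2 fold change -0.75 ± 0.23 (SE), edgeR adjusted p = 0.00848). srl, the homolog of mammalian PGC-1 coactivators, was not called (0.17 ± 0.48, edgeR adjusted p = 0.792). It was at 39.7 CPM in the control library with salivary gland markers, against 7.57 to 9.46 CPM in the other control libraries of day 5. The value for srl thus cannot be read as no change.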

How the data were processed

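RNA from pooled larval fat bodies was sequenced as paired 150-base reads, per the labels' protocols. The authors deposited 1 table of whole-number counts per gene and library. STAR 2.5.4a and the build BDGP6 stand in the submitters' processing notes, without a stated role, and how reads were counted, strand included, is not given in the sources used here. The deposited table gives FlyBase IDs; 17560 of 17698 matched a symbol in the BDGP6.54 annotation, which also gave positions and exon lengths.

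All 24 libraries entered 1 model with 6 groups in edgeR 4.0.16 (R 4.3.3), with low-count filtering, TMM scaling, robust quasi-likelihood tests and Benjamini-Hochberg adjustment over 8707 genes at 0.05. Fold changes are log2, and SE are taken from the F statistic. The tests were also run on simulated counts drawn independently for each gene. Such counts hold no variation that many genes share within a library, and no result here rests on them. Alternatives were DESeq2 1.42.0, other scalings, no filter, fewer groups, a replicate block and leaving out libraries. Named subunits were a list of core and nuclear subunits, the highest and lowest of each complex per comparison, members called against the majority and paralogs. ND-13B, ND-15, ND-B17.2, COX7B, COX7C and the other list genes were named after their values were seen. The members and lists were chosen with earlier results of these data known. No promoter or protein sequence was used here.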

Additional observations from a re-analysis of the deposited data

Results flagged for a closer look

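In 6 of 138 sets of 4 libraries examined, 1 library stood apart from the other 3 by Dixon's criterion, and chance gives about 1 such set in 20. ND-42 reached 143 CPM in the second control library of day 4, against 106 CPM in the next. ATPsynO reached 207 CPM in that library, against 165 CPM in the next. UQCR-C2 and ATPsyngamma were lowest in the first control library of day 5, with 53.8 and 95.2 CPM, against 60.7 and 108 CPM in the next. ATPsyngamma and ATPsynO were highest in the fourth tumour library of day 11, with 149 and 54.0 CPM, against 133 and 50.3 CPM in the next.

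The effect of tumours differed between days 5 and 4 for 8 of 57 tested subunits, by edgeR's test of the difference. All 8 were lower, against 16.8% of all genes, so their share was not above that background. The log2 differences were -0.98 for UQCR-11, -0.96 for ND-AGGG, -0.79 for ND-13A, -0.67 for ND-MLRQ, -0.66 for ND-15, -0.56 for ND-B17.2, -0.42 for ND-49 and -0.39 for ND-13B.

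The 20 paralog-named genes under the count filter summed to more in 4 tumour libraries than in any control library, where the highest sum was 1.30 CPM. The sums were 47.2 CPM in the first library of day 5, 1.98 CPM in the fourth of day 8, 1.70 CPM in the third of day 11 and 1.42 CPM in the second of day 4. All but the first of these sums are near the floor, with 52, 50 and 24 counts, against 17 counts in the control library with the highest sum. Of the 24 counts, 14 were of UQCR-11L, which had 9 and 10 counts in control libraries 1 and 2 of day 4. The testis markers also peaked in that library of day 5, and their part was not tested.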

How the results depend on the processing

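Alternatives kept 203 counts of called subunits within 1.5 times and changed 51, and kept 120 medians and changed 7. For single subunits, 6754 values kept direction and call, 363 lost a call, 87 gained one and 24 turned. These 4 were chosen after seeing the data: scaling to total counts, leaving out the tumour libraries 1 and 3 of day 5, leaving out the control libraries with salivary gland markers, and leaving out the gut-marked libraries (tumour libraries 1 and 2 and control libraries 1 and 4 of day 5, tumour library 1 of day 8). The cause of the changes was not tested.

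With only the compared groups in the model, 36 subunits rose with tumours at day 4, 4 were lower in the difference of effects, and 0 were higher at day 5 than at day 4 in either setting. At day 5, 1 subunit was lower with tumours under DESeq2, no filter, total counts, and without the salivary-marked libraries. In the difference, 5 were lower without the 20 most abundant genes in the scaling, 4 without tumour libraries 1 and 3 of day 5, and 1 was higher without the filter. With no filter the control median of day 5 against day 4 was -1.14, and 7 genes were higher with tumours. Without tumour libraries 1 and 3 of day 5, 0 were higher at day 5 than at day 4 and 2 were higher at day 8 than at day 5. Without the gut-marked libraries, 6 were higher and 1 lower at day 5 (median 0.18), the median of the difference was -0.40, 0 were higher at day 5 than at day 4 with tumours, and 1 was higher and 1 lower at day 8 than at day 5. That fit has fewer libraries, its share of all genes called is not given here, and libraries of days 4 and 11 with gut markers stayed in it.

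Scaled to total counts, 3 were higher and 3 lower in the difference, with a median of 0.11. The tumour median of day 5 against day 4 was -1.12 and that of day 11 against day 8 was 0.18. For day 8 against day 5 the median was 0.14, with 5 higher and 0 lower, and these subunits, called under at least 1 of both scalings, turned: ATPsynO 0.0181, COX5A 0.083, COX5B 0.041, COX6B 0.00682, COX7C 0.00776, ND-15 0.34, ND-20 0.0658, ND-24 0.12, ND-30 0.0036, ND-42 0.0588, ND-49 0.15, ND-51 0.14, ND-AGGG 0.25, ND-B12 0.0801, ND-B14 0.31, ND-B14.5B 0.0799, ND-B14.7 0.11, ND-B17 0.0147, ND-B17.2 0.0181, ND-B18 0.34 and UQCR-C2 0.0582. The fitted value of COX6AL rests on 0 or 1 counts in a group here and is neither a fold nor a bound. It turned to -5.09 at day 5 against controls and -1.80 against day 4 without tumour libraries 1 and 3 of day 5, and ran from -3.13 (without tumour library 1 of day 5) to 0.935 against controls when 1 library was left out.

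Leaving out 1 library gave 47 to 55 higher at day 4. At day 5 it gave 21 to 43 higher and 1 to 3 lower, the fewest higher without tumour library 1 (21) and 2 (25). It gave 4 to 12 lower in the difference (median -0.27 to -0.04), 0 or 1 higher at day 5 than at day 4 with tumours, and 7 to 36 lower and 0 or 1 higher at day 8 than at day 5 (7 without tumour library 1 of day 5).

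Replicate numbers did not pair the libraries: 17 of 60 same-number pairs had correlated deviations over 0.1, with r from -0.28 to 0.38. With the replicate block, 54 were higher at day 4, 36 higher and 1 lower at day 5, 8 lower in the difference, 0 higher with tumours at day 5 against day 4, and 24 lower at day 8 against day 5.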

Other observations

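Of the 8 subunits whose tumour effect differed between days, 4 lie on chromosome 4 or at the proximal end of chromosome 3L. ND-AGGG, UQCR-11 and ND-MLRQ lie on chromosome 3L beyond 23 Mb, and all 3 were lower in the difference of effects, as were 37.9% of the 29 tested genes there. On chromosome 4 it was 1 of 2 subunits (ND-49, with ATPsynbeta not called) and 21.1% of 76 genes. Elsewhere it was 4 of 50 subunits and 16.6% of 8519 genes. The regions were chosen after the values were seen, and no test was made.

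In the control libraries with salivary gland markers, srl and sesB were also high. srl, the homolog of mammalian PGC-1 coactivators, had 49.2 CPM in the second control library of day 4, against 12.4 to 19.1 CPM in the other 3, and 39.7 CPM in the third of day 5, against 7.57 to 9.46 CPM. sesB, the main ADP/ATP exchanger, had 825 CPM against 451 to 511 CPM at day 4 and 395 CPM against 130 to 159 CPM at day 5. PolrMT and Cyt-c-p, also looked at, were above the range of the other libraries of their group in both. Gpo1 was above it at day 4 (637 CPM against 14.0 to 134 CPM) but not at day 5 (25.3 CPM against 14.2 to 31.4 CPM). The part of the other tissue in these values was not tested.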
